A study of Mus musculus with 6 samples.

Results

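The accessibility of chromatin around Sox17 was described in mouse colon cancer organoids from 12 ATAC-seq peaks. They were all the peaks of the deposited table, 12 of 43020, that overlapped chromosome 1 from 4400000 to 4760000 (mm9), a window of 360 kb that holds Sox17 at about 4481000 to 4486500. Mouse Sox17 is transcribed from the minus strand, so its promoter end is the upper end of the gene and higher coordinates lie upstream. In ATAC-seq a transposase, Tn5, inserts sequencing adapters where DNA is open, so more accessible regions give more reads.

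The first group held 3 libraries of organoid lines grown from primary tumours (tumour-derived lines 1 to 3, numbered as the replicates in the titles). These tumours formed after AKP organoids had been placed in the colon of immunocompetent C57Bl6 mice by colonoscopy, and the cultures were passaged until they consisted of cancer cells. The second group held 3 libraries of naive AKP organoids that had not been transplanted (replicates 1 to 3). All 6 libraries carry the AKP genotype, which the labels give by this short name alone. The labels do not say whether the 3 lines came from separate mice or the naive libraries from separate cultures, so p-values measure the spread between these libraries, which may be technical in part. The time in the mouse, the derivation of the culture and its passages are common to the 3 lines and cannot be told apart.

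Sox17 encodes a transcription factor of the SOX F group, which binds DNA through an HMG box. It is needed to form the endoderm of the embryo, from which the gut lining arises, and it is active in the fetal gut and in the cells that line vessels. In the Wnt pathway SOX17 is known as a partner and antagonist of beta-catenin and the TCF/LEF factors. The title of the study gives it a role in immune evasion by early colorectal cancer, and the comparison here asks where chromatin at its locus differed in the lines from tumours. Transcription of Sox17 was not measured in these data.

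Chromatin around Sox17 was more accessible in the tumour-derived lines, and most of the difference lay far upstream of the gene. Of the 12 peaks, 4 rose at an adjusted p under 0.05, namely the peak over the gene body and peaks centred 175, 209.9 and 226 kb above its promoter end, and 0 fell. The other 7 tested peaks did not pass the test, and 1 peak with few reads was not tested. The peaks at 209.9 and 226 kb passed the filter on low counts only through the tumour-derived lines. Among all 36179 tested peaks of the table, 8.00% rose and 6.40% fell (edgeR's quasi-likelihood test with Benjamini-Hochberg adjustment). The median log2 fold change was 0.95 over the 11 tested peaks of the window and -0.01 over all tested peaks. In 5 of the 12 peaks every tumour-derived line lay above every naive library, and in 0 every line lay below, against 14.8% and 13.8% of all peaks of the table.

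**Figure D1:**
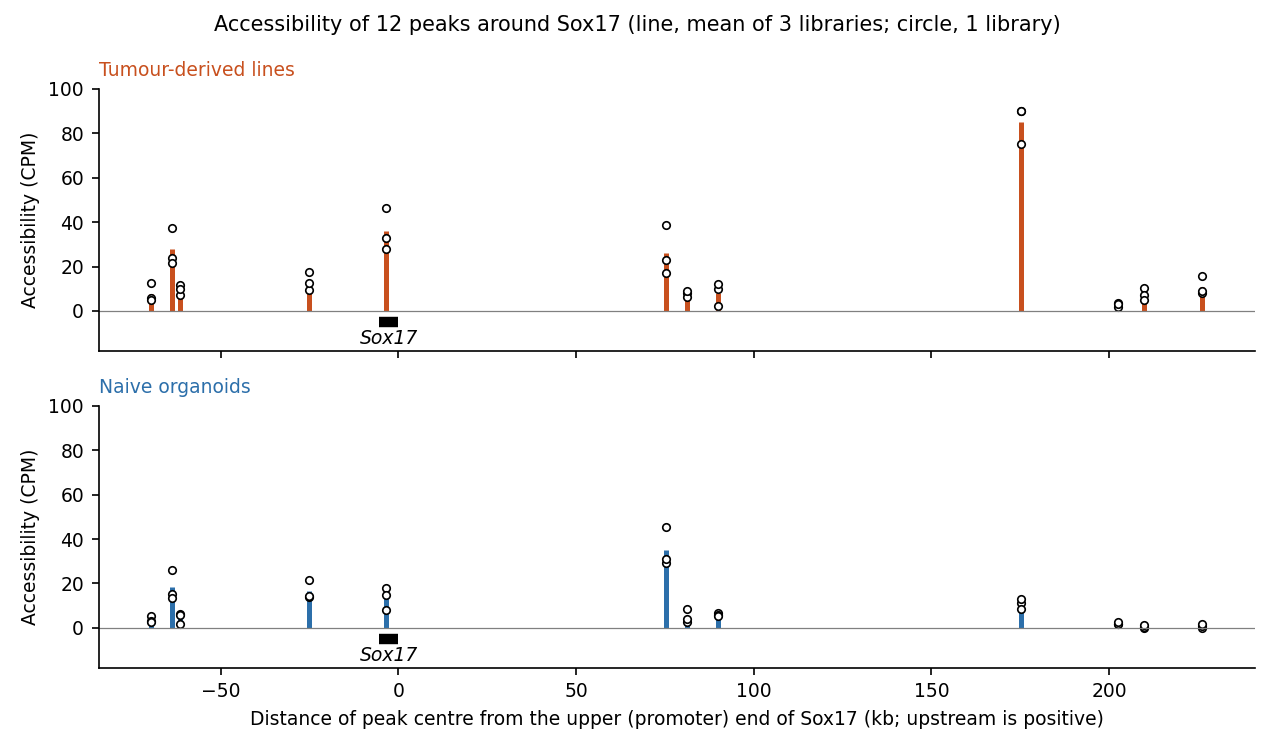
Accessibility (CPM, reads scaled to library size, vertical axis) of the 12 peaks against the distance of each peak's centre from the promoter end of Sox17 (kb, upstream positive), in tumour-derived lines above and naive organoids below. Lines reach the mean of 3 libraries, circles are libraries and the black bar is the gene. The peak 175 kb upstream had a mean of 85.1 CPM in tumour-derived lines and 10.9 CPM in naive organoids, whereas the peak 75.3 kb upstream was the strongest in naive organoids.

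The strongest difference in CPM was found at a wide peak 175 kb upstream, on chromosome 1 from 4660579 to 4662744. The normalized count, as CPM (reads per 1e6 reads in tested peaks, after TMM scaling), was 75.3, 90.0 and 90.1 in tumour-derived lines 1, 2 and 3, and 11.2, 8.64 and 12.8 in naive replicates 1, 2 and 3. The groups were far apart, and even the lowest line was several times higher than the highest naive library. Behind these values stood 264, 170 and 190 reads in the lines and 13, 47 and 30 in naive organoids. The means were 85.1 ± 8.51 CPM in tumour-derived lines and 10.9 ± 2.10 CPM in naive organoids (mean ± SD over n = 3 libraries each). The log2 fold change was 3.0 (SE 0.27, adjusted p = 5.38e-08, edgeR), an 8.02-fold difference with a 95% interval of 5.48 to 11.7. Only 0.420% of all tested peaks had a log2 fold change as high.

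This peak was 2165 bp wide, wider than all but a few percent of the peaks in the table (percentile 96.9). Its rank by mean CPM among all 43020 peaks was at percentile 95.8 in tumour-derived lines and at percentile 47.0 in naive organoids. Within the window it ranked 1 of 12 in the lines and 5 of 12 in naive organoids. Per kb of peak the level was 39.3 CPM in the lines and 5.02 CPM in naive organoids, the highest of the 12 in the lines and the fourth lowest in naive organoids. The order of the peaks by height thus differed between the groups.

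A pair of narrower peaks farther upstream was nearly closed in naive organoids. The peak at 209.9 kb, from 4696245 to 4696619, had 10.3, 7.41 and 4.74 CPM in tumour-derived lines and 0, 0.184 and 1.28 CPM in naive replicates 1, 2 and 3. Reads numbered 36, 14 and 10 in the lines and 0, 1 and 3 in naive organoids. The 0 reads of naive replicate 1, the shallowest library, allow a level of up to 2.57 CPM by a limit of 3 reads, and the 95% Poisson interval ends at 3.16 CPM. Such limits and all intervals on reads cover counting error only. The groups did not overlap, and the log2 fold change was 3.87 (SE 0.87, 95% interval 2.08 to 5.66, adjusted p = 0.00342, edgeR). The fold rests on few naive reads. The ratio of summed reads per library size was 17.9, with a counting interval of 6.64 to 67.8. Without naive replicate 3, 1 naive read was left and that ratio was 52.8 (9.13 to 2121), and without naive replicate 2 it was 9.35 (3.05 to 46.6) and the call was lost (adjusted p = 0.0515, edgeR).

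The peak at 226 kb, from 4712341 to 4713038, had 15.7, 7.94 and 9.01 CPM in tumour-derived lines and 0, 0.919 and 1.71 CPM in naive organoids. All 3 lines again lay above all 3 naive libraries, with 55, 15 and 19 reads in the lines and 0, 5 and 4 in naive organoids. The 0 reads of naive replicate 1 again allow a level of up to 2.57 CPM by the limit of 3 reads. Its log2 fold change was 3.41 (SE 0.68, 95% interval 2.01 to 4.81, adjusted p = 0.00119, edgeR). Line 1 was the highest of the lines at both of these narrow peaks and the lowest at the wide one. In naive organoids both were among the weakest peaks of the table, at percentiles 0.251 and 0.816 of mean CPM. In tumour-derived lines they stood at percentiles 31.1 and 43.5, so both were peaks of moderate height there. Between them and the wide peak lay a peak at 202 kb, from 4688695 to 4689156, with 2.00, 3.70 and 3.32 CPM in the lines and 1.72, 1.65 and 2.56 CPM in naive organoids. It held between 2 and 9 reads in every library, did not pass the filter on low counts, and the groups overlapped.

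The peak over the Sox17 gene body, from 4481903 to 4483860, was also higher in the tumour-derived lines. It had 33.1, 28.0 and 46.5 CPM in the lines and 18.0, 8.27 and 14.9 CPM in naive organoids. The groups did not overlap, and the lowest line stood above the highest naive library by more than the naive libraries' SD. The means were 35.9 ± 9.53 CPM in tumour-derived lines and 13.7 ± 4.98 CPM in naive organoids (mean ± SD over n = 3 libraries each). The log2 fold change came to 1.47 (SE 0.34, adjusted p = 0.00458, edgeR). Among naive libraries, replicate 2 was the lowest, with a 95% Poisson interval of 6.03 to 11.1 CPM. That interval lay below the one of replicate 1 (11.2 to 27.5 CPM) and overlapped the one of replicate 3 (10.4 to 20.8 CPM). Without naive replicate 2, the deepest library, the log2 fold change was 1.14 and the call was lost (adjusted p = 0.0695, edgeR).

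The gene body peak was 1957 bp wide and ended 2.64 kb below the promoter end of the gene, so it did not reach the promoter. No peak of the table had its centre within 10 kb upstream of the promoter end, and the next peak above the gene body peak began 74.9 kb upstream. The authors' numbering runs from 10 to 28 over the window, and 7 of these 19 numbers have no row, 6 of them between the gene body peak and that next peak. Peaks with those numbers were not analysed here, so the table gives no value for the promoter of Sox17.

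**Figure D2:**
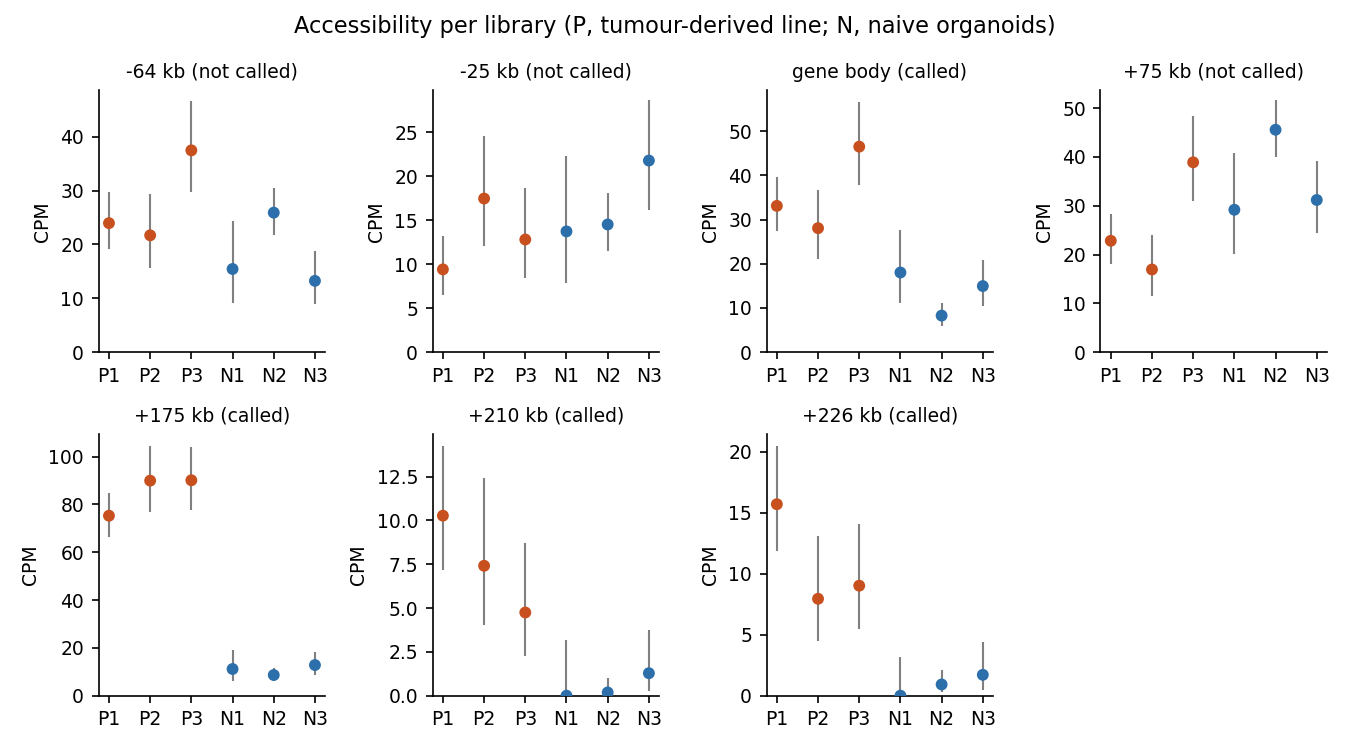
Accessibility (CPM, vertical axes starting at 0) in each tumour-derived line (P1 to P3) and each naive library (N1 to N3) for the 4 peaks that rose and the others among the 5 with the highest mean CPM, named by distance from the promoter end of Sox17. Bars are 95% Poisson intervals of the reads. At 175 kb the lines had 75.3 to 90.1 CPM and naive libraries 8.64 to 12.8 CPM, and at 75.3 kb and 63.7 kb the groups overlapped.

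Closer to the gene, the upstream peaks did not pass the test. The strongest naive peak of the window lay 75.3 kb upstream, from 4561367 to 4562300, with 22.8, 16.9 and 38.9 CPM in tumour-derived lines and 29.2, 45.6 and 31.2 CPM in naive organoids. The groups overlapped, since line 3 lay above naive replicates 1 and 3, and the log2 fold change was -0.46 (95% interval -1.09 to 0.17, adjusted p = 0.362, edgeR). The peaks at 81.1 and 90.0 kb were weak, with means of 7.78 ± 1.34 and 8.14 ± 5.35 CPM in the lines and 4.99 ± 3.14 and 6.10 ± 0.683 CPM in naive organoids (mean ± SD over n = 3 libraries each). Their log2 fold changes were 0.61 and 0.46, with intervals of -0.52 to 1.74 and -0.69 to 1.61, so folds of about 3 in the lines are within both intervals.

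Downstream of Sox17, on the side of its 3' end, 4 peaks were measured and none passed the test. The strongest of them, 63.7 kb from the promoter end (4422353 to 4423165), had 24.0, 21.7 and 37.5 CPM in tumour-derived lines and 15.4, 25.9 and 13.2 CPM in naive organoids. Naive replicate 2 lay within the range of the lines. The log2 fold change was 0.56 (95% interval -0.14 to 1.25, adjusted p = 0.303, edgeR). The peak at 61.5 kb (4424798 to 4425246) had 11.7, 7.41 and 9.96 CPM in the lines and 1.72, 6.25 and 5.98 CPM in naive organoids, with groups that did not overlap but a log2 fold change of 0.95 that missed the threshold (adjusted p = 0.249, edgeR). The peak at 69.6 kb (4416715 to 4417135) had 7.76 ± 4.40 CPM in the lines and 3.67 ± 1.33 CPM in naive organoids (log2 fold change 1.13, adjusted p = 0.230, edgeR). Its mean in the lines was carried by line 3, with 12.8 CPM against 5.70 and 4.76 CPM in lines 1 and 2. The peak at 25.1 kb (4460925 to 4461966) had 9.41, 17.5 and 12.8 CPM in tumour-derived lines 1, 2 and 3, and 13.7, 14.5 and 21.8 CPM in naive replicates 1, 2 and 3. The groups overlapped, with line 2 above naive replicates 1 and 2. The means were 13.2 ± 4.04 CPM in the lines and 16.7 ± 4.44 CPM in naive organoids (mean ± SD over n = 3 libraries each), and the log2 fold change was -0.36 (95% interval -1.16 to 0.45, adjusted p = 0.615, edgeR).

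**Figure D3:**
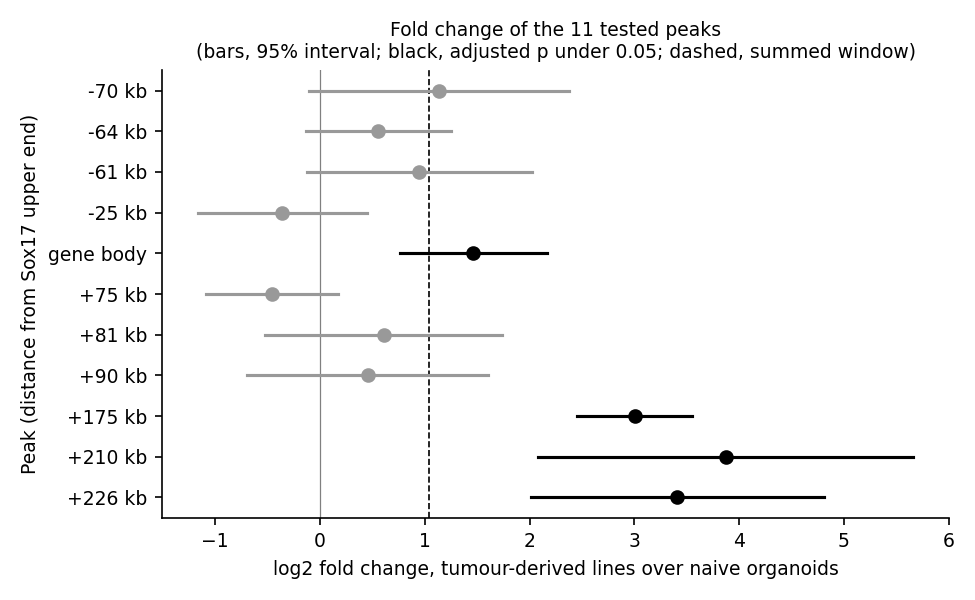
Log2 fold change, tumour-derived lines over naive organoids (horizontal axis), of the 11 tested peaks in order along the chromosome, named by distance from the promoter end of Sox17. Bars are 95% intervals, black marks an adjusted p under 0.05 and the dashed line is the summed window at 1.04. The intervals at 175, 209.9 and 226 kb start at 2.45, 2.08 and 2.01, and those of the 7 peaks in grey include 0.

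Each peak's fold change was also set against that of its whole window, the tested peak included. The test was diffSpliceDGE in edgeR, added after the values were seen. The 3 far upstream peaks exceeded the fold of the window by 1.96, 2.82 and 2.36 on the log2 scale at 175, 209.9 and 226 kb (adjusted p = 1.92e-06, 0.0143 and 0.0148, edgeR). The peaks at 75.3 kb upstream and 25.1 kb from the promoter end downstream fell short of it, by -1.51 and -1.41 (adjusted p = 0.000498 and 0.0249, edgeR). Their own log2 fold changes, -0.46 and -0.36, did not pass the test (adjusted p = 0.362 and 0.615, edgeR). The fold of the window includes the peaks called higher, and the peak at 175 kb held 59.2% of the difference in summed CPM. A shortfall therefore does not by itself show a fall in the lines, nor the absence of one. The fold of the gene body peak differed from that of the window by 0.42 (adjusted p = 0.571, edgeR). Among 35290 peaks tested in this way over the whole table, 5.53% exceeded their window and 3.17% fell short of it. The peaks at 209.9 and 226 kb entered this test through the tumour-derived lines alone. When each library was left out in turn, the peaks at 175 and 75.3 kb kept their calls in every case. The other 3 did not, and calls for the peaks at 209.9 and 226 kb were lost without tumour-derived line 1 (adjusted p = 0.0883 and 0.122), naive replicate 1 (0.0503 and 0.0544) or naive replicate 2 (0.269 and 0.143, edgeR). The call at 25.1 kb was lost without tumour-derived lines 1 or 3 (0.0818 and 0.109) and without naive replicates 2 or 3 (0.0535 and 0.164, edgeR).

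The sum over the 12 peaks was close to doubled in the tumour-derived lines. It was 228, 214 and 287 CPM in lines 1, 2 and 3, and 106, 125 and 122 CPM in naive replicates 1, 2 and 3. The groups did not overlap, and within them line 3 stood out as high, with a 95% Poisson interval of 265 to 311 CPM against 212 to 244 CPM in line 1. The sums rest on 799, 404 and 605 reads in the lines and 123, 680 and 286 reads in naive organoids. The means were 243 ± 38.8 CPM in tumour-derived lines and 118 ± 10.5 CPM in naive organoids (mean ± SD over n = 3 libraries each). In a fit over 4998 windows of 360 kb across the genome, the log2 fold change was 1.04 (SE 0.16, adjusted p = 0.000221, edgeR), a 2.05-fold difference with a 95% interval of 1.63 to 2.58. Of these windows 6.80% rose and 8.52% fell, and the Sox17 window ranked 179 by log2 fold change and 51 by p-value. An exact 2-sided permutation test of the sums gave p = 0.10, the smallest that 3 against 3 libraries allow.

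**Figure D4:**
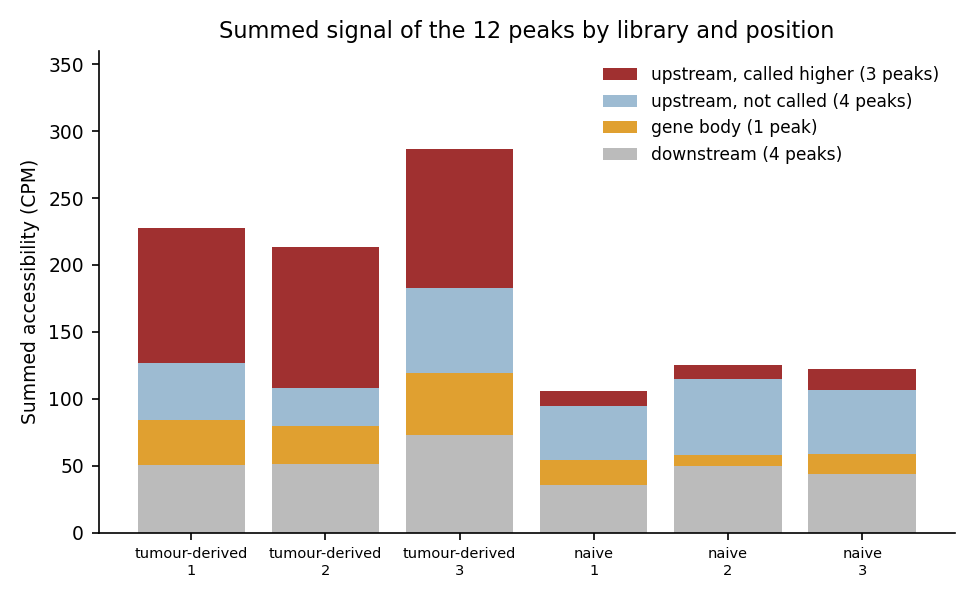
Summed accessibility (CPM, vertical axis) of the 12 peaks in each library, tumour-derived lines on the left and naive organoids on the right, divided by position and by whether upstream peaks were called higher. The sums were 214 to 287 CPM in the lines and 106 to 125 CPM in naive organoids, and the 3 upstream peaks called higher (top segment) take up most of the difference.

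The added signal was unevenly spread over the locus. The means of the sums differed by 125 CPM, of which the peak at 175 kb held 74.3 CPM, or 59.2%, and the 4 peaks that rose together 113 CPM, or 90.5%. Since these 4 were chosen by the same values, their part is a description. Their share of the reads of the window was 52.4% to 62.4% in the lines and 14.4% to 27.6% in naive organoids. The other 8 peaks summed to 104 ± 29.4 CPM in tumour-derived lines and 91.6 ± 15.3 CPM in naive organoids (mean ± SD over n = 3 libraries each). Without the peak at 175 kb, the log2 fold change of the window was 0.55 (adjusted p = 0.0447, edgeR).

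By position, the 7 upstream peaks summed to 144, 134 and 167 CPM in tumour-derived lines and 51.5, 66.7 and 63.6 CPM in naive organoids. The 4 downstream peaks summed to 50.8, 51.3 and 73.0 CPM in the lines and 36.0, 49.97 and 43.6 CPM in naive organoids. The upstream sums were far apart, while the downstream sums of line 1 and naive replicate 2 nearly met. The upstream sums include the 3 far peaks called higher, so that class did not rise evenly. The upstream peaks at 75.3, 81.1 and 90.0 kb had log2 fold changes of -0.46, 0.61 and 0.46 and were not called. The log2 ratio of the group means was 1.29 upstream, 1.38 over the gene body and 0.43 downstream, and in each an exact 2-sided permutation test gave p = 0.10, the smallest possible. The lines also differed in height along the locus. Line 3 was the highest of the 3 lines at 7 of the 12 peaks and line 2 the lowest at 8, while at 175 kb lines 2 and 3 were level.

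The peaks and windows next to the Sox17 window had negative log2 fold changes, and none passed the test. The nearest tested peak above the window, from 4775485 to 4776225, had 16.5, 13.2 and 12.3 CPM in tumour-derived lines and 14.6, 17.5 and 18.8 CPM in naive organoids (log2 fold change -0.27, adjusted p = 0.697, edgeR). The nearest below, from 4351849 to 4352385, had 5.42, 4.23 and 7.11 CPM in the lines and 10.3, 13.2 and 12.4 CPM in naive organoids. Its log2 fold change was -1.11 and missed the threshold (adjusted p = 0.120, edgeR). The next 360 kb window above held 8 peaks, with a log2 fold change of -0.34 (adjusted p = 0.148, edgeR). Over 49 tested peaks in the first 10 Mb of chromosome 1, the median of log2(CPM + 1) relative to the naive mean was -0.42, -0.27 and -0.33 in tumour-derived lines 1, 2 and 3, and -0.10, 0.05 and 0.10 in naive replicates 1, 2 and 3. The 49 peaks include the 11 tested peaks of the Sox17 window itself, so the regional level is not independent of it. With that regional level taken out of each library, the log2 fold change of the Sox17 window was 1.33 (adjusted p = 1.89e-06, edgeR). In the order of genes in RefSeq (GRCm38), the next protein-coding gene listed above Sox17 is Mrpl15, which encodes a protein of the mitochondrial ribosome, and 4 long non-coding RNAs, 6 pseudogenes and 1 small nuclear RNA are listed between them. The distal peaks were not assigned to any of these genes, because no annotation of mm9 was used here.

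**Figure D5:**
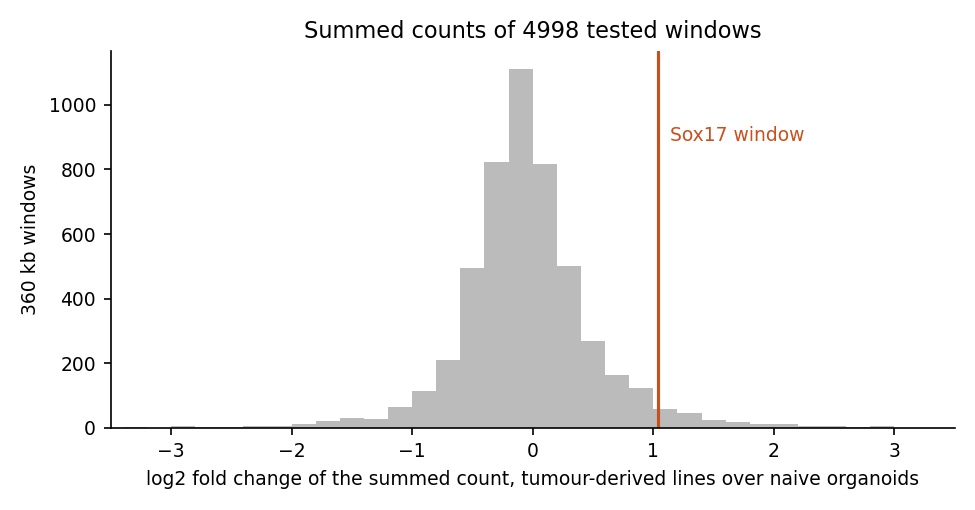
Number of 360 kb windows (vertical axis) by log2 fold change of their summed count, tumour-derived lines over naive organoids (horizontal axis), for 4998 tested windows. The line marks the Sox17 window at 1.04, and 3.58% of windows had a value as high.

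Gains of this number were not unique to Sox17. At least 4 peaks called higher were found in 10.4% of the 1296 windows with at least 11 tested peaks, as many as the Sox17 window. Among all 4884 windows with a tested peak it was 168 (3.44%), but these include windows with too few tested peaks to reach 4. The 5 peaks elsewhere whose profile over the 6 libraries was nearest to that of the summed Sox17 window, by Euclidean distance of centred log2(CPM + 1), were at distances of 0.176 to 0.228. The nearest lay on chromosome 10 from 17248208 to 17249084, with 23.4, 20.1 and 31.8 CPM in tumour-derived lines and 10.3, 11.6 and 12.4 CPM in naive organoids. It followed the same order of the lines, with line 3 highest and line 2 lowest. The second was at 69792851 to 69794468 of chromosome 14, the third at 98783442 to 98784224 of chromosome 15, the fourth at 58512089 to 58513188 of chromosome 16 and the fifth at 134483269 to 134483780 of chromosome 1. They were chosen for likeness, so their values carry no test.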

How the data were processed

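The authors deposited raw read counts per peak of 1 peak set for all 6 libraries. The submitters' processing notes name Bowtie, Picard, SAMtools, MACS2 and bedtools, without roles, and mm9. Per the labels' protocols, 50000 cells were incubated with transposase for 30 min at 37 °C and read as 2 reads of 75 bases per fragment. The sources used here do not give how peaks were chosen, how duplicates were treated or whether read ends were shifted. Peak totals ran from 1185356 to 3594735 reads in 5 libraries and were 5987545 in naive replicate 2. The table's authors' scores were not used.

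In R 4.3.3, edgeR 4.0.16 (limma 3.58.1 loaded) kept 36179 of 43020 peaks by filterByExpr (6841 not tested), scaled them by TMM (factors 0.922 to 1.05) and ran the quasi-likelihood F test (robust, 2-sided) on a model of group alone. P-values were adjusted by Benjamini and Hochberg over every tested peak or window, and calls were made under 0.05. Windows were tiles of 360 kb aligned to the Sox17 window, with peaks placed by their centre. The peaks and tests were chosen with earlier results of these data known. All peaks of the window are given; those called and the 5 strongest, the gene body peak among them, are given with the value in every library, as are the nearest tested peaks outside. In simulated counts, the peak test found 92.5% of those with a log2 fold of 3 and 15.4% of those with 1, with 7.26% false among its calls (34788 peaks). The test of peaks against their window found 94.0% and 4.62% (33932 peaks). The window test found 100.0% of windows with a log2 fold of 1, with 5.66% false among its calls (4777 windows). Each count in brackets is of all simulated features, and those given a fold were only a part of them. Alternatives included DESeq2 1.42.0. No Sox17 promoter sequence was used here.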

Additional observations from a re-analysis of the deposited data

How the results depend on the processing

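The fold of the summed Sox17 window kept its direction and its call in all 16 alternatives, with log2 values of 0.55 to 1.33 (highest adjusted p 0.0447, edgeR, without the peak at 175 kb), and of 0.92 to 1.11 when 1 library was left out. The count of 4 peaks called was the same with either other scaling, DESeq2, no filter, trended or regional offsets. It was 2 with at least 20 counts in at least 3 libraries, because the peaks at 209.9 and 226 kb were then not tested, and 2 to 4 when 1 library was left out, with 2 without naive replicate 2. Among all peaks, between 2215 and 5440 were called with 1 library left out, against 5210, the fewest without naive replicate 2; the cause was not tested. Deviations from the group means correlated by -0.24, -0.11 and 0.005 between libraries with the same number, so the numbers were not taken to pair libraries. With a replicate block, 3539 of all peaks were called and again 4 of the window, and the window sum had a log2 fold change of 1.04 (adjusted p = 0.00376, edgeR). The count of peaks that differed from the fold of their window was 5, against 3 with the stricter filter, 2 with the replicate block and 2 to 5 with 1 library left out; these alternatives were chosen after seeing the data. The differences from the window that had not passed the test ran from -0.59 to 0.42, and 3 of these 6 changed sign under an alternative: at 69.6 kb downstream (0.08), -0.047 with the replicate block, -0.26 with trended offsets and -0.33 to 0.37 with 1 library left out; at 61.5 kb (-0.10), 0.041 with the regional offset and -0.32 to 0.10; at 81.1 kb upstream (-0.44), -0.72 to 0.11. Log ratios by position class moved by less than the spread between replicates. Depth limits the peaks with few naive reads, whose folds are bounded by counting error.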
